A study of Mus musculus with 6 samples.

Results

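The small nuclear and nucleolar RNAs of regulatory T cells (Treg) were taken as the genes of the deposited table whose symbol began with Snord, Snora, Scarna, Rnu or Rn7s, or was Rmrp, Rpph1 or Terc, and whose counts summed to at least 60 over the 6 libraries. Of 29199 genes, 91 matched by symbol and 86 reached that sum. They comprised 50 C/D box and 17 H/ACA box small nucleolar RNAs (snoRNAs), 7 small Cajal body RNAs, 7 small nuclear RNAs, 3 7SL RNA genes, and Rpph1 and Terc, the RNA subunits of RNase P and telomerase. Members were thus chosen by symbol and by their summed count. That sum does not use the comparison between groups, but the set was put together with earlier results of these data known. The lowest members were Snord42a with 91 counts, Scarna8 with 95 and Snord90 with 106. Just outside were Snora43 with 59 counts, all in replicate 3 of Treg with WT Tconv, Rnu6 with 41 and Snord55 with 26, followed by Rnu7 with 4 and Snord67 with 2. RMRP and 7SK were not analysed here.

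The study asked how the genotype of conventional CD4+ T cells (Tconv) affects their control by Treg. Hosts were lethally irradiated C57BL/6 J or CD45.1+ B6 mice, given equal parts of C57BL/6 J (B6) and semi-allogeneic B6D2F1 bone marrow, naive Tconv, and Treg that had been expanded in culture. The Treg were wild-type (WT) in every library. They came from B6 mice that report Foxp3 with Thy1.1, were grown with IL-2, TGF-β and beads against CD3 and CD28, and were sorted again from the spleen 3 weeks after the graft as CD4+ Thy1.1+ cells of B6 tissue type. In 3 libraries (Treg with WT Tconv) the co-injected Tconv were WT, and in 3 (Treg with HP1α KO Tconv) they came from mice with a floxed Hp1a allele deleted by CMV-cre, a Cre that acts throughout the body. The study's mutant lines had mixed 129/Sv and C57BL/6 ancestry. HP1α, encoded by Cbx5, is a heterochromatin protein, so the knockout was in the neighbouring Tconv and not in the cells that were sequenced. The labels do not say that libraries of a group came from separate mice, so the p-values measure the spread between these samples, which may in part be technical.

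Most snoRNAs are cut out of the introns of other genes and work inside a protein particle. C/D box snoRNAs guide the methylation of ribose on ribosomal RNA, H/ACA box snoRNAs guide the conversion of uridine to pseudouridine, and small Cajal body RNAs do the same for the RNAs of the spliceosome. A few, such as U3 and U8 among the C/D box and U17 among the H/ACA box RNAs, are needed for the cutting of the ribosomal RNA precursor itself. U1, U2 and U5 are parts of the main spliceosome and U11 and U12 of the minor one, which removes a rare class of introns. 7SL is the RNA of the signal recognition particle, RNase P trims the ends of tRNA precursors, and Terc carries the template for telomere repeats. Activated T cells raise ribosome production as they grow, and snoRNAs are part of that production.

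The sequences of 7 members show what sets the classes apart, and are printed as examples, namely the C/D box and H/ACA box genes with the smallest p, Snord42a as the member with the fewest counts, a small Cajal body RNA called by DESeq2, and the U8 gene Snord118, whose fold lay on the other side of 0. They were read from GRCm39 at the position of each gene, 5′ to 3′. Capitals mark the box motifs that were searched on the strand of the gene, TGATGA in the first 20 bases and CTGA in the last 20 for C/D box RNAs, and ACA in the last 10 for Snora47.
Snord82 (chr1:86283983-86284052, minus strand): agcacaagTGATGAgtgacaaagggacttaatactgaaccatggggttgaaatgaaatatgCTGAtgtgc
Snord89 (chr1:39587826-39587935, minus strand): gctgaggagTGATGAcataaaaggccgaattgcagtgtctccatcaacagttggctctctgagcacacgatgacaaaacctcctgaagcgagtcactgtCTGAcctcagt
Snord91a (chr11:74796250-74796342, plus strand): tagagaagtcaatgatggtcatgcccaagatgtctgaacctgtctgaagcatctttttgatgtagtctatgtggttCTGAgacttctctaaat
Snord42a (chr11:78072125-78072189, minus strand): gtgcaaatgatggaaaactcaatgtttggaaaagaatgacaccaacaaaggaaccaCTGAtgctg
Snord118 (chr11:68964253-68964387, plus strand): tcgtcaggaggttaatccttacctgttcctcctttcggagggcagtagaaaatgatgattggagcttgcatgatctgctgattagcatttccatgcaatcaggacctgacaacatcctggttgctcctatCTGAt
Snora47 (chr13:95467108-95467245, plus strand): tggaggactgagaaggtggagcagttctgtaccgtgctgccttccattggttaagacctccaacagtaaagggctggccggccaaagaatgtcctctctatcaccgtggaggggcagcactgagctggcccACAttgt
Scarna6 (chr1:87712278-87712542, plus strand): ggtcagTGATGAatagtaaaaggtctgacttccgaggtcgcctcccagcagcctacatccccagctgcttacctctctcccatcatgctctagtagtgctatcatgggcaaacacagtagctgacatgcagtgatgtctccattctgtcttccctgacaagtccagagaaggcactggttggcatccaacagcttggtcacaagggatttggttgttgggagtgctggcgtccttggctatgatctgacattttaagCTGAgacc

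The symbols and the sequences went together. Among the 50 C/D box genes, CTGA stood in the last 20 bases of 49 and TGATGA in the first 20 of 27, whereas among the 17 H/ACA box genes these were found in 2 and 0. ACA stood in the last 10 bases of all 17 H/ACA box genes and of 6 of the 50 C/D box genes. In the small Cajal body RNAs, a class that mixes both kinds, CTGA was found in 5 of 7 and TGATGA in 4, Scarna6 among them. A motif match is a description of letters in a window and not of a working box.

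Library totals ranged from 87421755 to 119078882 counts, of which the 86 genes took 55808 to 104875, and 84 to 86 of the genes had at least 1 count in a library. The defining Treg markers Foxp3, Il2ra, Ctla4, Ikzf2, Cd4 and Cd3e summed to 4035 to 4674 CPM (counts scaled to a common library total of 1000000) with WT Tconv and 3764 to 4056 CPM with HP1α KO Tconv. Replicate 3 of Treg with WT Tconv stood apart, with 6261 CPM of red cell precursor transcripts against 394 to 729 CPM in the other 5 libraries and 1944 CPM of neutrophil precursor transcripts against 43.4 to 234 CPM. The main counts below are therefore also given without that library. Library totals were scaled by TMM before CPM were taken, and where levels of genes are ranked against each other this is per kilobase of gene, except that genes to name were picked by CPM.

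Small RNA levels were lower in Treg with HP1α KO Tconv than in Treg with WT Tconv for most members, by a small amount. In the edgeR fit, 85 of the 86 genes passed the filter on low counts (Rnu1b1 did not), and 66 of them (77.6%) had a log2 fold change below 0, where 51.5% of all 18321 tested genes did. Their median log2 fold change (HP1α KO over WT) was -0.27, against -0.01 over all tested genes. An unadjusted p under 0.05 was reached by 17 members (20%), all lower, where 7.52% of all tested genes were lower and 6.98% higher at that threshold. No member was higher at that threshold. The groups did not overlap, with HP1α KO lower, for 23 members (27.1%, against 11.6% of all tested genes), and with HP1α KO higher for 2, Snord3b-ps2 and Snora5c (11.5% of all tested genes).

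No single member passed the adjusted threshold in edgeR. With Benjamini-Hochberg adjustment, 0 of 18321 genes (0%) and 0 members had an adjusted p under 0.05, although 2656 genes (14.5%) had an unadjusted p under 0.05. DESeq2 called 526 of the 12097 genes (4.35%) that it gave an adjusted p, 3.03% lower and 1.31% higher. It gave an adjusted p to 43 members and called 4 of them, all lower, namely Rpph1, Scarna17, Scarna2 and Scarna6. With replicate 3 of the WT Tconv group left out, edgeR had 62 of 85 members below 0 and 10 lower at an unadjusted p under 0.05 (11.8%, against 5.72% of all genes in that fit), and DESeq2 called 0 members. In that fit no member was higher at the unadjusted threshold. Compared with the other 2 WT Tconv libraries alone, HP1α KO was lower without overlap for 31 members (36.5%, against 16.3% of all genes) and higher for 2 (2.35%, against 16.1%). The edgeR count of lower members was 11 without replicate 1 of that group (5.45% of all genes) and 9 without replicate 2 (5.18%). Leaving out replicate 1 instead, DESeq2 called 0 members when it was that of the WT Tconv group and 2 when it was that of the HP1α KO Tconv group. In sorted cells, fewer cells carrying an RNA and less of that RNA per cell cannot be told apart. Whether short RNA was recovered equally well in each library was not tested.

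**Figure D1:**
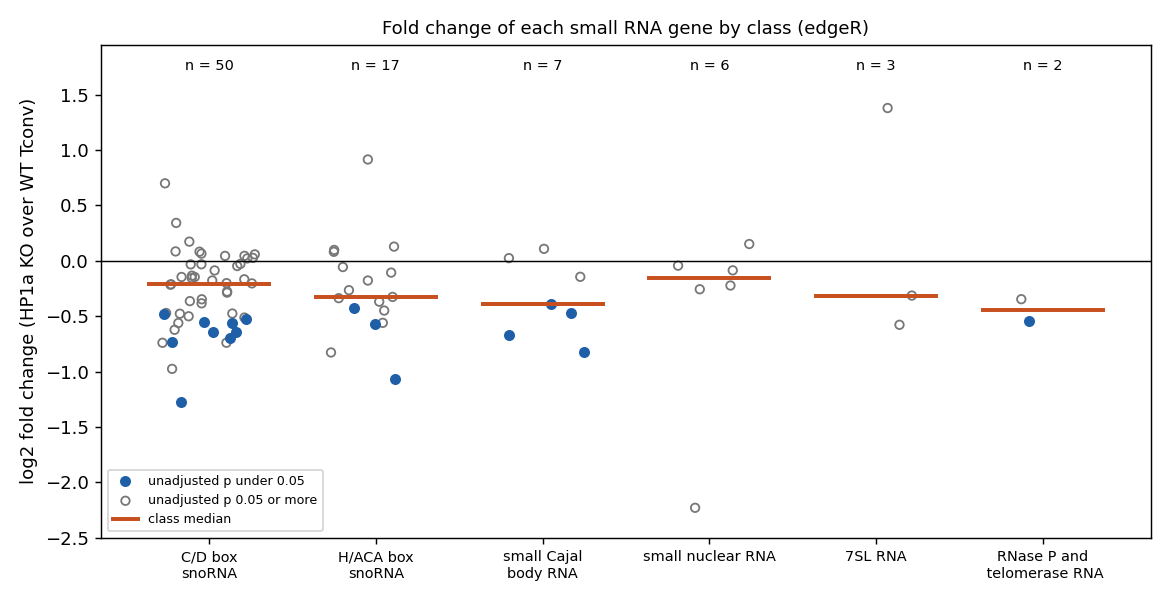
Each point is 1 of the 85 tested genes, placed by class, with its log2 fold change (HP1α KO Tconv over WT Tconv, edgeR) on the vertical axis; orange bars are class medians. Filled points are the 17 genes with an unadjusted p under 0.05, all below 0, and the medians run from -0.16 in the small nuclear RNAs to -0.45 for Rpph1 and Terc.

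Every class had a median below 0, and the share of genes below 0 was 39 of 50 in the C/D box class, 13 of 17 in the H/ACA box class, 5 of 7 in the small Cajal body class and 5 of 6 in the small nuclear RNAs. The class medians were -0.21 for C/D box, -0.33 for H/ACA box, -0.39 for small Cajal body, -0.16 for small nuclear and -0.31 for 7SL RNAs on the log2 scale. Unadjusted p-values under 0.05 fell on 9 C/D box, 3 H/ACA box and 4 small Cajal body RNAs and on Rpph1, and on none of the small nuclear and 7SL RNAs. Without replicate 3 of the WT Tconv group these were 4 of 50, 3 of 17 and 2 of 7 genes and Rpph1. In that fit 5.72% of all genes were lower at that threshold, and the C/D box share was near that.

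The small Cajal body RNAs, 5 of 7 with a log2 fold change below 0, summed to 244, 259 and 238 CPM in replicates 1, 2 and 3 of Treg with WT Tconv and 204, 193 and 166 CPM in those of Treg with HP1α KO Tconv. The groups did not overlap, and the means were 247 ± 10.8 CPM and 188 ± 19.4 CPM (SD, n = 3 each), a ratio of 0.760. Scarna2 made up most of that sum, but the other 6 genes gave a similar ratio of 0.746, at 60.5 ± 2.46 CPM against 45.2 ± 9.72 CPM (SD, n = 3 each).

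Scarna2 (ENSMUSG00000088185, chr3:108461654-108462067, minus strand) had the smallest unadjusted p of all members. Its level was 181, 200.1 and 178 CPM with WT Tconv and 151, 158 and 118 CPM with HP1α KO Tconv, so that the highest HP1α KO library lay below the lowest WT library. Its log2 fold change of -0.39 had a standard error of 0.112, an unadjusted p of 0.00841 and an adjusted p of 0.224 in edgeR, and the adjusted p in DESeq2 was 0.0370. Leaving out 1 library at a time put that DESeq2 value between 0.00248 and 0.211. It was under 0.05 only without replicate 2 of the HP1α KO Tconv group.

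Scarna17 showed the largest fold in the class. It was at 8.35, 8.43 and 7.07 CPM with WT Tconv and 5.76, 2.57 and 5.16 CPM with HP1α KO Tconv, without overlap. The log2 fold change of -0.82 had a standard error of 0.288, with an adjusted p of 0.278 in edgeR and 0.0292 in DESeq2, and was -0.54 without replicate 2 of the HP1α KO Tconv group. With single libraries left out, its DESeq2 value ran from 0.00741 to 0.210, and was under 0.05 only without replicate 1 or 2 of the HP1α KO Tconv group. In Scarna6, which lies in an intron of the autophagy gene Atg16l1, the levels were 9.52, 7.09 and 12.1 CPM against 5.96, 4.57 and 7.50 CPM. Those groups overlapped, since replicate 3 with HP1α KO Tconv exceeded replicate 2 with WT Tconv. The log2 fold change of -0.67 had an adjusted p of 0.284 in edgeR and 0.0491 in DESeq2 (0.0335 to 0.347 with single libraries left out). That DESeq2 value was under 0.05 only without replicate 2 of the WT Tconv group or replicate 3 of the HP1α KO Tconv group.

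Scarna9, from an intron of Cep295, was annotated with 70 bases and held 34.6, 32.2 and 30.8 CPM with WT Tconv and 30, 17.1 and 23.4 CPM with HP1α KO Tconv. The groups were apart but close, with a log2 fold change of -0.47 and a standard error of 0.194 (edgeR, unadjusted p 0.0486, adjusted p 0.342), or -0.28 without replicate 2 of the HP1α KO Tconv group. Scarna10 did not follow the others, at 9.71 ± 0.950 CPM against 10.5 ± 0.816 CPM (SD, n = 3 each) and a log2 fold change of 0.11, which was 0.03 without replicate 3 of the WT Tconv group and 0.17 without replicate 2 of the HP1α KO Tconv group. Scarna8, one of the lowest members of all, was at 0.159 ± 0.0360 CPM against 0.162 ± 0.108 CPM (SD, n = 3 each), and its direction turned when single libraries were left out.

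**Figure D2:**
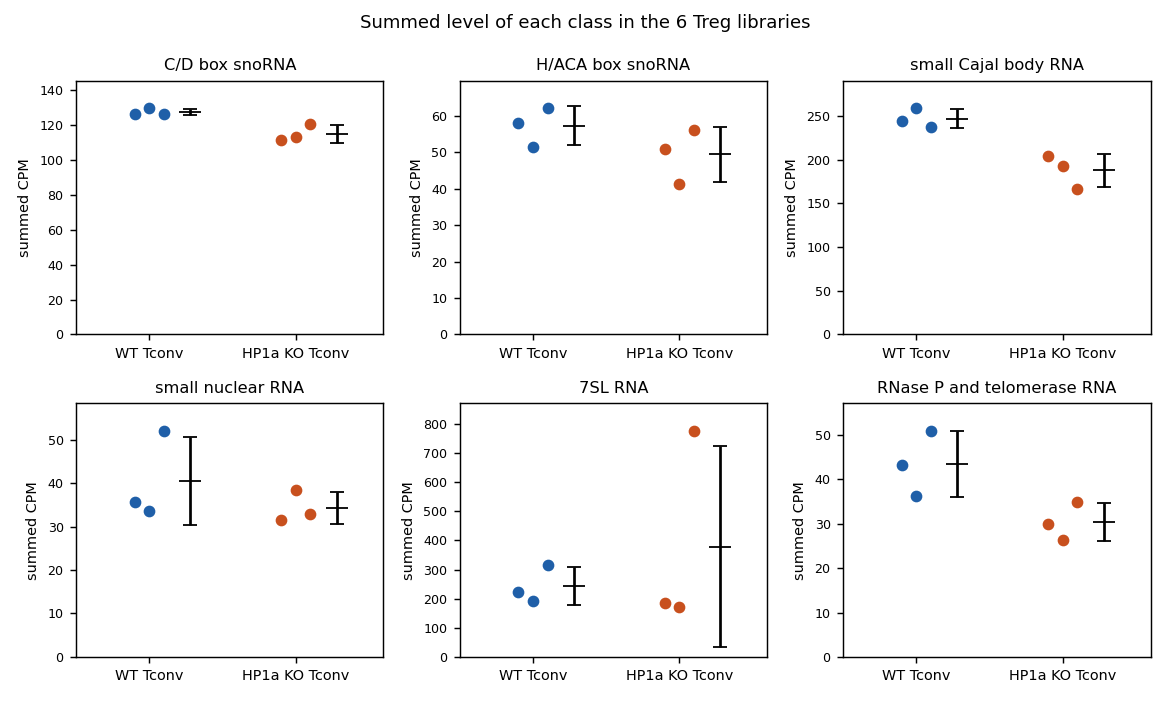
Summed CPM of each class (vertical axes, from 0) in the 3 WT Tconv (blue) and 3 HP1α KO Tconv (orange) libraries, with bars for the mean and SD. The groups do not overlap for the C/D box snoRNAs, the small Cajal body RNAs and Rpph1 with Terc, and 1 library at 777 CPM sets the 7SL mean of Treg with HP1α KO Tconv.

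Rpph1 and Terc were both lower. Rpph1 (ENSMUSG00000092837, chr14:51044906-51045224, minus strand) was at 38.3, 31.4 and 43.9 CPM with WT Tconv and 25.7, 21.6 and 30.6 CPM with HP1α KO Tconv. No HP1α KO library reached a WT library, giving a log2 fold change of -0.54 and a standard error of 0.162 (adjusted p 0.235 in edgeR and 0.0188 in DESeq2). That DESeq2 value ran from 0.00970 to 0.183 with single libraries left out, and was under 0.05 in 2 of those 6 fits. Exons of Ccnb1ip1 on the same strand cover 84% of Rpph1, and Ccnb1ip1 itself had 0, 39 and 165 counts in the WT Tconv libraries and none in any other, against 19035 counts for Rpph1 in all. Terc (ENSMUSG00000118406) was at 4.95, 4.78 and 7.16 CPM against 4.31, 4.70 and 4.27 CPM, with groups that just failed to overlap. Its log2 fold change of -0.35 had an adjusted p of 0.427 in edgeR and 0.326 in DESeq2, and it was -0.14 (adjusted p 0.760) without replicate 3 of the WT Tconv group, which held the 7.16 CPM.

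C/D box snoRNAs as a class were lower by less. They summed to 126, 129.5 and 126 CPM with WT Tconv and 111, 113 and 121 CPM with HP1α KO Tconv, without overlap, and the ratio of the means was 0.901. The U3 genes, at 215 bases or close to it, held a large part of this sum. The 4 genes Snord3b1, Snord3b2, Snord3b3 and Snord3b4 have the same 215 bases, so that reads cannot be told apart between them, and together they were at 28.8, 28 and 26.2 CPM against 28.4, 27.1 and 28.7 CPM. Snord3a, a U3 gene on another chromosome, was at 9.11 ± 1.66 CPM against 9.39 ± 1.99 CPM (SD, n = 3 each). Of 6 genes named as U3, 1 was below 0, and their median log2 fold change was 0.05.

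Snord91a, Snord89 and Snord82 had the smallest p-values among the C/D box genes. Snord91a, from an intron of the ribosome maturation gene Tsr1, was at 1.83, 2.00 and 1.84 CPM with WT Tconv and 1.40, 1.23 and 1.22 CPM with HP1α KO Tconv. The groups were tight and apart, with a log2 fold change of -0.56 and a standard error of 0.176 (edgeR, unadjusted p 0.0128, adjusted p 0.240). Snord89, in an intron of the non-coding gene Gm15832, was at 1.60, 1.55 and 2.12 CPM against 1.13, 1.29 and 0.963 CPM and had a log2 fold change of -0.64 (adjusted p 0.256). For Snord82, in an intron of Ncl, which encodes the nucleolar protein nucleolin, the levels were 2.74, 3.12 and 3.31 CPM against 2.05, 2.02 and 2.49 CPM, without overlap, and the log2 fold change was -0.48 (adjusted p 0.264). All 3 passed the unadjusted threshold and none the adjusted one, and DESeq2 gave Snord82 an adjusted p of 0.163 and the other two none.

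The largest fold among the C/D box genes rested on few reads. Snord42a had 24, 22 and 20 counts with WT Tconv and 7, 14 and 4 counts with HP1α KO Tconv, and its log2 fold change of -1.28 had a standard error of 0.548 (edgeR, unadjusted p 0.0471, adjusted p 0.339). Snord90, with 16, 25 and 32 counts against 17, 11 and 5 counts, overlapped between groups.

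In the other direction, U8 (Snord118) was at 3.02, 2.6 and 2.74 CPM with WT Tconv and 2.79, 3.85 and 3.94 CPM with HP1α KO Tconv. Replicates 2 and 3 with HP1α KO Tconv were above all WT libraries and replicate 1 was within them, giving a log2 fold change of 0.34 with an unadjusted p of 0.0937 (adjusted p 0.436 in edgeR). Snord3b-ps2, a U3-like copy in an intron of Tmem62, was low, at 0.195 ± 0.0279 CPM against 0.318 ± 0.0633 CPM (SD, n = 3 each), with a log2 fold change of 0.70 and an adjusted p of 0.444. Snord49a, the C/D box RNA with the highest level per kilobase at 117 CPM per kilobase, was at 8.87 ± 0.838 CPM against 7.96 ± 0.748 CPM (SD, n = 3 each), and its log2 fold change of -0.16 had an unadjusted p of 0.242, and was -0.07 without replicate 2 of the WT Tconv group and -0.08 without replicate 3 of the HP1α KO Tconv group.

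**Figure D3:**
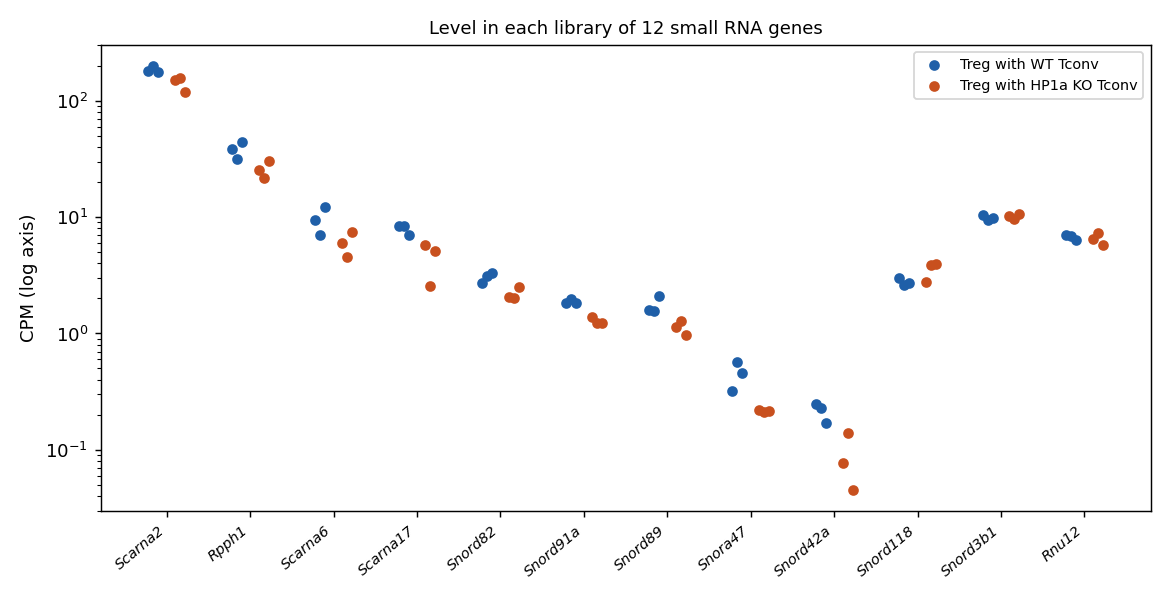
CPM (log axis) of 12 genes in each of the 3 WT Tconv (blue) and 3 HP1α KO Tconv (orange) libraries. From Scarna2 to Snord42a the orange points lie lower, apart from the overlap in Scarna6 (7.09 CPM with WT Tconv and 7.50 CPM with HP1α KO Tconv), while Snord118, Snord3b1 and Rnu12 do not show this order.

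H/ACA box snoRNAs summed to 58.2, 51.6 and 62.2 CPM with WT Tconv and 51.0, 41.3 and 56.2 CPM with HP1α KO Tconv, and the groups overlapped. Snora47, in an intron of the zinc finger gene Zbed3, had the smallest p of the class. It was at 0.323, 0.569 and 0.461 CPM against 0.220, 0.210 and 0.215 CPM, without overlap, with a log2 fold change of -1.06, a standard error of 0.355 and an adjusted p of 0.249 in edgeR. Of the 4 genes picked by CPM, Snora73a and Snora73b, both coding for U17 and both in Snhg3, differ at 7 of 205 bases (96.59% identity), so reads can be shared between them. Snora73a was at 6.71 ± 0.656 CPM against 7.09 ± 0.438 CPM and Snora73b at 17.6 ± 3.74 CPM against 13.6 ± 6.51 CPM (SD, n = 3 each).

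Snora78, which lies in an exon of Snhg9, was at 10.5 ± 1.82 CPM against 9.72 ± 1.55 CPM, and Snora57 was at 5.55 ± 0.736 CPM against 4.39 ± 0.759 CPM (SD, n = 3 each). The log2 fold change was -0.11 for Snora78 and -0.34 for Snora57, with unadjusted p-values of 0.531 and 0.0851 in edgeR. Snora5c, the H/ACA box gene that was higher without overlap, was at 0.395, 0.269 and 0.0598 CPM against 0.418, 0.530 and 0.408 CPM. Its replicate 3 with WT Tconv was far below the others, and the log2 fold change of 0.91 had a standard error of 0.588 and an adjusted p of 0.521 in edgeR. The log2 fold change was 0.44 without that library and 1.48 without replicate 1 of the WT Tconv group.

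None of the 6 tested small nuclear RNA members had an unadjusted p under 0.05 in edgeR. With all libraries DESeq2 gave 5 of them an adjusted p and called none. Rnu11 was at 8.48, 8.45 and 8.36 CPM with WT Tconv and 6.90, 8.88 and 5.38 CPM with HP1α KO Tconv, and its log2 fold change was -0.26 (edgeR, unadjusted p 0.181). Without replicate 2 of the HP1α KO Tconv group, its highest library, Rnu11 was at -0.46 and was called by DESeq2; leaving out replicate 3 instead gave -0.10. Rnu12 was at 6.75 ± 0.333 CPM against 6.54 ± 0.791 CPM, Rnu2-10 at 9.38 ± 0.961 CPM against 8.83 ± 0.485 CPM, and Rnu5g at 2.99 ± 0.721 CPM against 2.56 ± 0.592 CPM (SD, n = 3 each). Their log2 fold changes were -0.04, -0.09 and -0.22, each less than 1 standard error from 0 (0.130, 0.115 and 0.246). For Rnu5g the value ran from -0.04 without replicate 1 of the WT Tconv group to -0.40 without replicate 3 of it.

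U1, U2 and U5 are coded by many near-identical genes, and the deposited table splits their reads over rows that mostly carry other symbols. With all small nuclear RNA genes of at least 95% identity added, the 17 U1 genes summed to 48.3 ± 12.6 CPM against 43.2 ± 1.9 CPM and the 11 U2 genes to 59.5 ± 3.65 CPM against 63.5 ± 11.4 CPM (SD, n = 3 each), both overlapping. The 4 U5 genes were at 15.1, 12 and 11.1 CPM with WT Tconv and 10.2, 10.5 and 8.09 CPM with HP1α KO Tconv, which did not overlap. Single U1 rows are uncertain for the same reason. Rnu1b1 and Rnu1b2 have the same 165 bases, and their sum was 3, 78 and 2300 counts with WT Tconv and 0, 81 and 610 counts with HP1α KO Tconv. Both replicate 3 libraries were high, and the log2 fold change of -2.23 for Rnu1b2 had a standard error of 2.65. Rnu1a1, in the same stretch of chromosome 11 as the U3 genes, was at 6.07, 5.54 and 6.52 CPM with WT Tconv and 6.22, 9.34 and 4.55 CPM with HP1α KO Tconv, giving a log2 fold change of 0.15 (standard error 0.246).

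The U1 genes are printed because their 5′ end carries the letters that pair with the 5′ splice site, here in capitals from position 3, and because reads of genes this alike are hard to place.
Rnu1a1 (chr11:87313693-87313856, plus strand): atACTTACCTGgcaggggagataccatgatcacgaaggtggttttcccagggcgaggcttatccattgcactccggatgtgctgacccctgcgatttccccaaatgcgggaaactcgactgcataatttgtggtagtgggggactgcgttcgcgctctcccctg
Rnu1b2 (chr3:96281337-96281501, plus strand): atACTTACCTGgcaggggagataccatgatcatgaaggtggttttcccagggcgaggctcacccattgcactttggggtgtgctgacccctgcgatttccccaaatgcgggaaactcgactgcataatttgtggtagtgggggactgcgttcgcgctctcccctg

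7SL RNA was the one class whose mean was higher with HP1α KO Tconv, and 1 library set that mean. The 3 genes summed to 223, 191 and 315 CPM with WT Tconv and 186, 171 and 777 CPM with HP1α KO Tconv. Rn7s1 and Rn7s2 on chromosome 12 have the same 300 bases, yet in replicate 3 with HP1α KO Tconv Rn7s2 was at 680.3 CPM and Rn7s1 at 53.1 CPM. In the other 5 libraries Rn7s2 was between 60.7 and 132 CPM. Rn7s6, which matches Rn7s1 at 98.6% over its first 214 bases, was at 54.3, 37.7 and 77.4 CPM with WT Tconv and 38.1, 31.6 and 43.7 CPM with HP1α KO Tconv. Log2 fold changes were -0.31 for Rn7s1, 1.38 for Rn7s2 and -0.58 for Rn7s6, with adjusted p-values of 0.578, 0.628 and 0.442 in edgeR. Without replicate 3 of the WT Tconv group, the highest of that group in 7SL, Rn7s1 was at -0.08 and Rn7s6 at -0.28. Without replicate 2 of that group Rn7s6 was at -0.79 and was called by DESeq2. With replicate 3 of the HP1α KO Tconv group left out, the difference between the groups in summed 7SL level turned from 135 to -64.3 CPM. The sum of all 86 genes was at 759 ± 75.6 CPM against 795 ± 341 CPM (SD, n = 3 each) for that reason. With the 7SL genes set aside after this was seen, the other 83 genes were at 508, 509.7 and 529 CPM against 427, 412 and 411 CPM, a ratio of 0.808 without overlap. Scarna2 alone gave 186 ± 11.8 CPM of that with WT Tconv and 142 ± 21.3 CPM with HP1α KO Tconv (SD, n = 3 each).

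In the median over all members, the libraries of a group went together. The median member lay above its mean over the 6 libraries by 0.09, 0.14 and 0.14 on the log2 scale in replicates 1, 2 and 3 of Treg with WT Tconv, and at -0.11, -0.18 and -0.13 in those of Treg with HP1α KO Tconv. Not every class followed. The small nuclear RNAs were at -0.02 in replicate 3 with WT Tconv and 0.15 in replicate 2 with HP1α KO Tconv. 7SL RNAs were at -0.07 and -0.26 in replicates 1 and 2 with WT Tconv. The lowest value of a member fell in replicate 3 with HP1α KO Tconv for 30 of the 86 genes, in replicate 2 for 24 and in replicate 1 for 13. Each library with WT Tconv held the lowest value of 5 to 8 genes.

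Fold changes lay further below 0 in the shorter members. Of the 36 tested members under 100 bases, 34 had a log2 fold change below 0 and the median was -0.43; the exceptions were Snord85 at 0.06 and Snord92 at 0.02. Of the 32 members of 100 bases up to 200, 23 were below 0 with a median of -0.20, and of the 17 members of 200 bases or more, 9 were below 0 with a median of -0.09. Without replicate 3 of the WT Tconv group, 32, 21 and 9 of these members were below 0, with medians of -0.44, -0.12 and -0.07. Length and class overlap, since the C/D box genes had a median length of 85 bases and the H/ACA box genes of 136, and the members of 200 bases or more include the U3 and 7SL genes. Scarna2 at 414 bases and Rpph1 at 319 bases were long and lower.

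**Figure D4:**
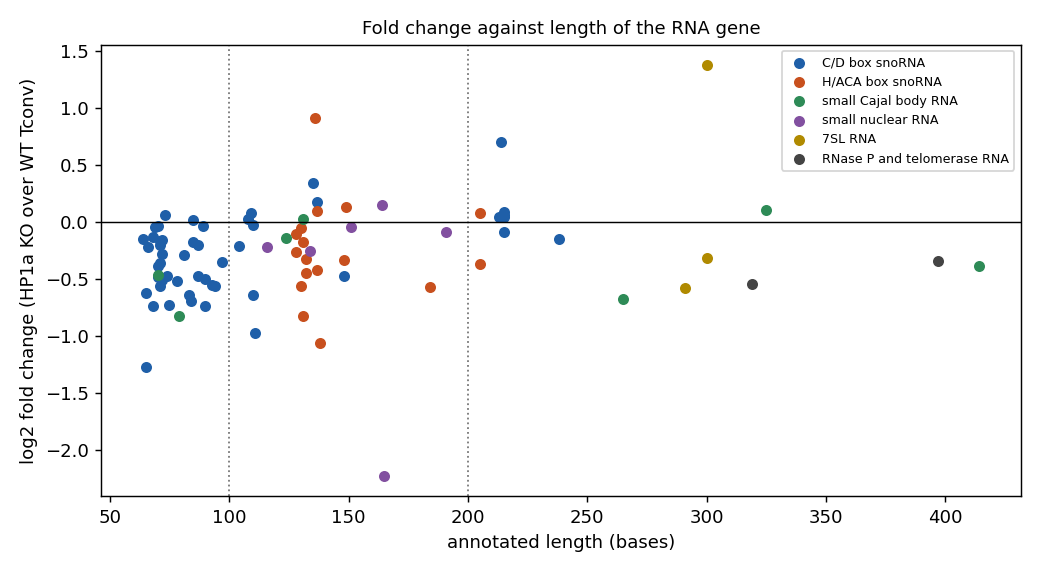
Log2 fold change (HP1α KO over WT Tconv, edgeR) of the 85 tested genes against their annotated length in bases, coloured by class; dotted lines stand at 100 and 200 bases. Left of 100 bases 34 of 36 points lie below 0, and right of 200 bases 9 of 17 do.

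The other short genes of the table were set beside the members. The 529 tested genes under 200 bases that were not members summed to 1598, 1594 and 1623 CPM with WT Tconv and 1508, 1335 and 1316 CPM with HP1α KO Tconv, also without overlap, and 319 of them (60.3%) were below 0 with a median of -0.12. The 308 of them that are not annotated as snoRNA, scaRNA or snRNA had 51.9% below 0, a median of -0.03 and 4.22% lower at an unadjusted p under 0.05, where all tested genes had 51.5%, -0.01 and 7.52%. The 113 among them that the annotation calls snoRNA or scaRNA under other symbols had 90 (79.6%) below 0 and a median of -0.25, and 14 (12.4%) were lower and 0 higher at an unadjusted p under 0.05. Their sum was 749, 740.4 and 795 CPM against 665, 534 and 520.0 CPM. Without replicate 3 of the WT Tconv group, 92 of the 113 were below 0 and 11 were lower at that threshold. Over all genes in that fit, 48.7% were below 0 and 5.72% lower. The 108 annotated as snRNA under other symbols had 69 (63.9%) below 0 and a median of -0.13, with 9 lower (8.33%) and 3 higher, and they summed to 147, 144 and 147 CPM against 130, 131 and 154 CPM, which overlapped. The 155 miRNA hairpin genes had 66.5% below 0, a median of -0.26 and sums that overlapped between groups. Of them, 9 were lower (5.81%) and 2 higher at an unadjusted p under 0.05. The 9 mitochondrial tRNA genes had 8 below 0 and 2 lower at that threshold. By contrast, 15 of the 63 short T cell receptor J genes (median 0.08) and 9 of the 31 short processed pseudogenes (median 0.10) were below 0. The 308 genes above include the miRNA, mitochondrial tRNA, J gene and pseudogene groups, which went different ways, so 51.9% describes a mixture. Length here is that of the annotated gene and not of the RNA that a read came from. These are values side by side, and the part of length in the result was not tested.

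Most snoRNA and small Cajal body genes lie inside another gene on the same strand, so their reads can also come from its precursor. For 67 of them the host was tested too, with 53 different hosts. The hosts differed less than the small RNAs inside them. The median log2 fold change was -0.27 for the small RNAs and -0.06 for the hosts, the small RNA lay below its host in 52 of 67 pairs (51 without replicate 3 of the WT Tconv group), and Pearson's r across pairs was 0.149, where pairs share libraries and some share a host. The median difference was -0.19 for the 40 small RNAs within an intron and -0.36 for the 27 that overlap an annotated exon.

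Pairs inside ribosomal protein genes all went one way. All 16 members inside one of 10 such genes lay below their host, also without replicate 3 of the WT Tconv group, with a median of -0.25 for the small RNAs and 0.09 for the hosts. Snora62 at 0.13 and Snord43 at 0.03 were themselves above 0, and their hosts Rpsa and Rpl3 were at 0.22 and 0.03. Rpsa had an unadjusted p of 0.0443 in edgeR. This group of hosts was not among the comparisons planned. Rpl13a was at 651 ± 65.3 CPM against 711 ± 35.1 CPM (SD, n = 3 each) with a log2 fold change of 0.13, while Snord32a, Snord34 and Snord35a inside it were at -0.64, -0.38 and -0.74. Rpl23a had a log2 fold change of 0.15, and its members Snord42a, Snord42b and Snord4a were at -1.28, -0.05 and -0.17. In Rpl3, at 0.03, Snord83b was at -0.56 and Snord43 at 0.03. Members of 1 host thus had different fold changes, which were not tested against each other. Outside the ribosomal protein genes, 2410006H16Rik was at 0.20 and its members Snord49a, Snord49b and Snord65 at -0.16, -0.28 and -0.51.

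Both the small RNA and its host were below 0 in 30 of the 67 pairs. Of the 53 hosts, 5 were lower (9.43%, near the 7.52% of all tested genes) and 1 higher (1.89%, against 6.98%) at an unadjusted p under 0.05, among them Ipo7 at -0.21 (unadjusted p 0.00724), which holds Snora23 at -0.57, and Snhg9 at -0.43 (unadjusted p 0.0359), which was further below 0 than its Snora78 at -0.11. Ncl, the host of Snord82, was at 394 ± 30.4 CPM against 261 ± 47.1 CPM (SD, n = 3 each), with a log2 fold change of -0.60 and an adjusted p of 0.00108 in DESeq2 and 0.209 in edgeR. Gm15832, the host of Snord89, was at 21.5 ± 1.16 CPM against 11.8 ± 2.44 CPM (SD, n = 3 each), at -0.87 with an adjusted p of 1.9e-05 in DESeq2 and 0.209 in edgeR. In both pairs, the host was further below 0 than its snoRNA. Ncapd2, a condensin gene, was at 715 ± 188 CPM against 463 ± 60.1 CPM (SD, n = 3 each). Its log2 fold change of -0.63 had an adjusted p of 0.00801 in DESeq2 and 0.253 in edgeR. Scarna10 was at 0.11, but exons of Ncapd2 cover 72.9% of it, so reads can be shared between them. Among the other hosts of the members named above, Tsr1 was at -0.14, Zbed3 at -0.44, Atg16l1 at -0.18, Tmem62 at 0.16 and Tex14 (Snord3b1, Snord3b3, Snord3b4 and Rnu1a1) at 0.10. Further hosts were Tmem107 (Snord118) at -0.38, Snhg3 (Snora73a and Snora73b) at -0.21 and Haus6 (Scarna8) at -0.14. Cep295 (Scarna9) was at -0.08, Rc3h2 (Snord90) at -0.06 and Tbrg4 (Snora5c) at -0.06. Neither these hosts nor Snhg9 were called by edgeR or DESeq2, but DESeq2 gave Tex14 and Tmem107 no adjusted p.

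**Figure D5:**
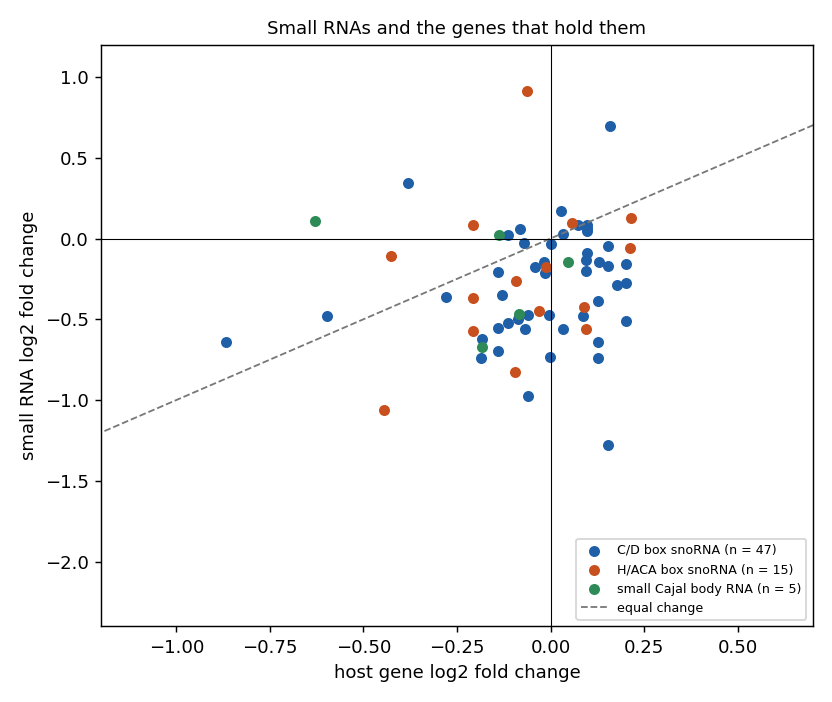
Log2 fold change (HP1α KO over WT Tconv, edgeR) of 67 snoRNAs and small Cajal body RNAs (vertical axis) against that of the gene that holds each (horizontal axis); the dashed line is equal change. In 52 pairs the point lies below the line, and most hosts lie within 0.25 of 0.

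The proteins of these particles, with those of the related 7SK complex, whose own RNA is no member, were on both sides of 0 when pooled. Of 76 genes in 7 lists, 75 were tested, 42 were below 0, 8 were lower (10.7%, against 7.52% of all tested genes) and 7 higher (9.33%, against 6.98%) at an unadjusted p under 0.05, and 0 had an adjusted p under 0.05 in edgeR. Without replicate 3 of the WT Tconv group, 6 of the 75 were lower and 6 higher at that threshold. Of all 18678 genes in that fit, 1069 were lower (5.72%) and 1031 higher. Single lists differed in their counts. In the 7SK complex 3 of 6 genes were lower and 0 higher at the unadjusted threshold. Of these 6 genes, 4 had a log2 fold change below 0, while Mepce at 0.16 and Cdk9 at 0.11 were above it. Among the 8 signal recognition particle genes, 7 were below 0, 1 of them lower at that threshold. None of the 8 H/ACA box and telomerase genes and none of the 11 C/D box genes was called by DESeq2. In the C/D box list, whose members build and hold the methylation particle, Pih1d1 and Ruvbl2 were higher at the unadjusted threshold, with log2 fold changes of 0.30 and 0.32, and Fbl, the methyltransferase itself, was at -0.21 (edgeR, unadjusted p 0.104). In the H/ACA list, the assembly factor Naf1 was at -0.32 and Wrap53, which brings small Cajal body RNAs and Terc to Cajal bodies, at 0.24, while the pseudouridine synthase Dkc1 was at -0.03.

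DESeq2 called 5 of the 75 protein genes (6.67%, against 4.35% of all genes it gave an adjusted p), 4 lower and 1 higher. Hexim1 and Ccnt1 of the 7SK list were at -0.33 and -0.29 with adjusted p-values of 0.0423 and 0.0297 in DESeq2. Snrpd1, a core protein of the small nuclear RNPs, was at -0.27 (0.0419) and Srp19 of the signal recognition particle at -0.46 (0.0422). Ice2, of the complex that promotes small nuclear RNA transcription, was higher at 0.42 (0.0149). In edgeR their adjusted p-values ranged from 0.209 to 0.238.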

How the data were processed

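Total RNA of sorted Treg was sequenced on a stranded, ribosome-depleted library. Column purification recovers short RNA poorly, so levels of these genes are not their levels in cells. After trimming, the authors used STAR (GRCm39) for alignment and Salmon for quantification, and deposited estimated counts per gene, here whole numbers. Salmon assigns ambiguous reads by a model, so those of near-identical genes, or of a small RNA and its host, can be misplaced.

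Members and lists were chosen with earlier results of these data known. The test across all genes was the edgeR (version 4.0.16, R version 4.3.3) quasi-likelihood test with TMM, filterByExpr and group as the sole term, and p-values were adjusted by Benjamini-Hochberg over 18321 genes. Standard errors were derived from the F statistic (absolute log2 change divided by the root of F). DESeq2 version 1.42.0, limma-voom (limma version 3.58.1), other scalings and count filters, a replicate block and leaving out each library were alternatives. The fits were tested on simulated data, and no result of that is given here.

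Named genes were all small nuclear, 7SL, Rpph1 and Terc genes, the 4 highest by CPM in each other class, the 6 with the smallest p in each direction, those called by DESeq2, those nearest the threshold of 60 counts, and the hosts of these. Other members in the text were chosen after their values were seen. Positions, lengths, hosts and sequences came from GRCm39 with a later GENCODE annotation, which matched all 86 members. The host is the shortest same-strand gene that contains the member. Near-identical genes were searched with BLASTN version 2.17.0 (at least 95% identity over 80% of the length).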

Additional observations from a re-analysis of the deposited data

How the results depend on the processing

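The direction over the members held in the alternatives run: 61 to 67 members were below 0 in each. The number lower at an unadjusted p under 0.05 was 17, and 11 (12.9%) with the replicate block, where 6.32% of all genes were. Leaving out each library in turn gave 9 to 13 (10.6% to 15.3%, where 5.18% to 8.92% of all genes were), and the number higher 0 to 1. The same replicate numbers did not pair the libraries (correlations of deviations -0.042, 0.182 and 0.117). Adjusted calls over all genes numbered 526 with DESeq2, 38 with a filter of at least 1 count, 1 with the replicate block and 0 to 2 in edgeR without single libraries. DESeq2 without single libraries called 181 (without WT replicate 3) to 1413 (without HP1α KO replicate 2) genes, and 0 to 4 members against 4 with all libraries. The median of the members was -0.2278 with total counts alone and -0.3063 to -0.2126 without single libraries. The class medians without single libraries ran from -0.3567 to -0.187 for C/D box, -0.388 to -0.2083 for H/ACA box, -0.6448 to -0.2835 for small Cajal body, -0.2116 to -0.02276 for small nuclear, -0.5341 to -0.07746 for 7SL RNAs and -0.5439 to -0.2801 for Rpph1 with Terc.

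Of 35 named members, 27 kept their sign in every alternative that gave a value; 5 gave none with a filter of at least 10 counts in every library (Snord42a, Snord90, Snora5c, Scarna8 and Rnu1b2). The cause was not tested for the others, except that fewer libraries were used where 1 was left out. Scarna8 turned to -0.144 with limma-voom and -0.113 with the replicate block. Without single libraries the log2 fold change ranged from -0.645 (without HP1α KO replicate 1) to 0.308 for Scarna8, also turning at -0.107 without WT replicate 1. It ranged from -0.13 to 0.013 (without WT replicate 1) for Rnu2-10, -0.14 (without HP1α KO replicate 3) to 0.153 for Snord3a, -4.20 to 1.93 (without WT replicate 3) for Rnu1b2, -0.221 to 0.045 (without WT replicate 3) for Snora78, -0.16 (without HP1α KO replicate 2) to 0.366 for Rnu1a1, and -0.53 (without HP1α KO replicate 3) to 1.85 for Rn7s2. Rnu12 turned to 0.039 without HP1α KO replicate 3, Snord3a to -0.088 without WT replicate 2 and Snora78 to 0.0078 without HP1α KO replicate 2. The lowest members rest on about 100 counts over 6 libraries, which limits what can be seen in them.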
